A study of Homo sapiens with 12 samples.

Results

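The mitochondrial ribosome is built from 2 subunits of nuclear-encoded proteins around RNA transcribed from the mitochondrial genome. It translates the few respiratory chain subunits that the mitochondrial genome encodes. Its proteins carry the gene symbols MRPL for the large subunit and MRPS for the small subunit; some descend from bacterial ribosomal proteins and others are found only in mitochondria. The genes described here are the 78 deposited genes whose symbol is MRPL or MRPS followed by a number and at most 1 letter from A to C, out of 17303 genes in the table. The choice used symbols only, not measured values. All 78 passed the filter on low counts, among 12868 genes tested, with 140.15 to 3882 expected counts in any library. They comprise 51 large subunit genes, 26 small subunit genes and MRPS36, and lie on 21 chromosomes. MRPS30 and MRPS18A are counted with the large subunit, where their proteins sit despite their names. MRPS36 is counted apart, because its protein belongs to the 2-oxoglutarate dehydrogenase complex.

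SNU638, the source of the libraries, is an established line of human gastric cancer cells, here with a genotype labelled wt. The cells had been infected with lentivirus and selected with puromycin, so every group, the control included, carried a hairpin vector and had been through selection. The 4 groups were a line with a control hairpin (sh-control) and lines with 1 of 3 hairpins against SKA2 (sh-SKA2-1, sh-SKA2-2 and sh-SKA2-3, here hairpins 1, 2 and 3), with 3 libraries each and 12 in all. SKA2 is a subunit of the SKA complex, which holds kinetochores to spindle microtubules. Separate cultures per library are not stated in the labels; p-values therefore cover only library-to-library spread, and this may be technical. Each hairpin was present in 1 stable line, so a hairpin and its line cannot be told apart.

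SKA2 itself stood at 126, 119 and 117 CPM (counts scaled to library size, after scaling by the trimmed mean of M-values, TMM) in the control libraries and at 22.3 to 28.0 CPM in the 9 libraries with a SKA2 hairpin. Its log2 fold change was -2.33, -2.25 and -2.18 with hairpins 1, 2 and 3. Markers of leukocytes, endothelium and part of the fibroblast list (PTPRC, PECAM1, COL3A1 and DCN) stayed at or below 0.403 CPM in every library, and COL1A1 ranged from 3.38 to 8.79 CPM. The epithelial markers EPCAM, KRT8, KRT18 and KRT19 were at 175 CPM or more in every library, and CDH1, the epithelial cadherin, was low at 1.65 to 8.88 CPM. All 5 of these epithelial genes were lower with hairpin 2 than in the control, and their part in the results below was not tested.

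Libraries differed in how their counts depended on transcript length, and this touches every result on these genes because their transcripts are short. Their median annotated transcript was 1458.5 bp, against 3145 bp over the 12771 tested genes with a length, and 65 of 78 fell in the 3 shortest deciles of length among those genes. Over all tested genes, the log2 ratio of a library to the control mean changed with each doubling of length by 0.15, -0.037 and -0.12 in control libraries 1, 2 and 3. The same slope was 0.30, 0.33 and 0.32 with hairpin 1, 0.38, 0.40 and 0.43 with hairpin 2, and 0.32, 0.090 and 0.043 with hairpin 3. Control library 1 and hairpin 3 library 1 therefore stood apart from the other libraries of their groups, and long transcripts weighed more in hairpin 1 and hairpin 2 libraries than in any control library. Whether the slopes came from the RNA, the library preparation or the cells was not tested.

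Summed over the 78 genes, TMM-scaled CPM was 5417, 6393 and 6960 in the control libraries. It was 4842, 4752 and 4855 with hairpin 1, 3927, 3813 and 3726 with hairpin 2, and 4907, 5866 and 6228 with hairpin 3. The 3 hairpin 2 libraries were the lowest of the 12, and the hairpin 1 libraries lay below every control library, while hairpin 3 overlapped the control. The deposited TPM scale divides each gene by its length. The sums were 8921, 9339 and 9647 TPM in the control, 8856, 8804 and 8905 with hairpin 1, 7519, 7481 and 7402 with hairpin 2, and 8703, 9511 and 9681 with hairpin 3. Per length, the hairpin 2 libraries were again the lowest 3, hairpin 3 overlapped the control, and the highest hairpin 1 library lay just under the lowest control library. In the bulk libraries, fewer transcripts per cell and a changed mixture of cells cannot be told apart.

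**Figure D1:**
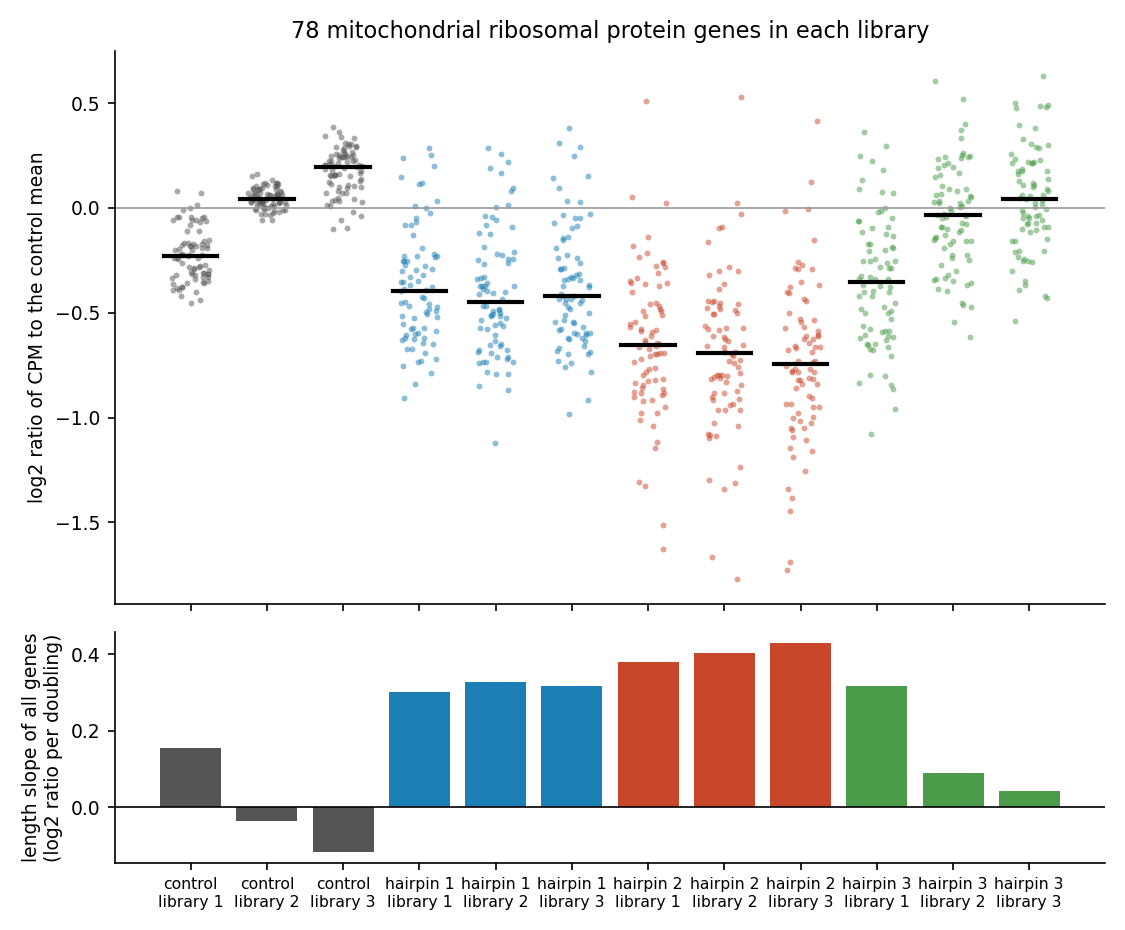
Upper panel: log2 ratio of CPM to the mean of the control libraries for each of the 78 genes (points) and their median (bar) in each library. Lower panel: the slope of the same ratio on log2 transcript length over all tested genes. The medians run from 0.20 in control library 3 to -0.75 in hairpin 2 library 3, and control library 1 and hairpin 3 library 1 lie below the other libraries of their groups.

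Levels per length differed widely among the genes themselves. In the control, the median gene stood at 101 TPM and 39 of 78 were at or above 100 TPM. The highest were MRPL21 at 427 ± 48.7 TPM (SD, n = 3), MRPL12 at 328 ± 35.3 TPM and MRPS24 at 325 ± 38.7 TPM. The spread of these values overlapped between MRPL12 and MRPS24. The lowest were MRPL42 at 8.74 ± 1.56 TPM, MRPS33 at 11.03 ± 0.745 TPM and MRPL50 at 18.0 ± 1.67 TPM. All 3 of the lowest have long annotated transcripts, 15582 bp for MRPL42, 4241 bp for MRPS33 and 3332 bp for MRPL50, so their TPM rests on those models. In CPM, which is not divided by length, MRPL42 was at 92.4 ± 5.52 in the control.

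The promoter sequences of some genes that carry the contrasts below are shown here. Whether their letters go with their changes was not tested. Each line gives the 120 bases before the RefSeq start on build GRCh38.p14, read 5′ to 3′ on the gene's strand, with the letters CCGGAAG or CTTCCGG in capitals where they occur. These letters are the core bound by ETS factors such as GABP, a known regulator of nuclear genes for mitochondrial proteins. MRPL58 and MRPL11 had the largest falls with hairpin 2, MRPS14 rose with hairpin 2, and MRPS10 and MRPS18A were lower with each hairpin. The windows are chr17:75012550-75012669 (plus strand) for MRPL58, chr11:66438849-66438968 (minus) for MRPL11, chr1:175023426-175023545 (minus) for MRPS14, chr6:42217862-42217981 (minus) for MRPS10 and chr6:43687792-43687911 (minus) for MRPS18A. That of MRPL11 lies in an intron of a longer GENCODE v29 gene model, and the last 4 bases of that of MRPS10 overlap its first GENCODE exon. Other windows of this length are not printed. The letters were absent from those of MRPL41, MRPS16, MRPS18B and MRPS5, which were also called lower with each hairpin on TMM-scaled counts. For MRPS16 they occur in the longer window used below. MRPL37 and MRPS23 were both called lower with hairpin 2, and only MRPS23 had the letters. MRPL48 also had them, and it was lower with hairpin 2 and higher with another hairpin.
MRPL58: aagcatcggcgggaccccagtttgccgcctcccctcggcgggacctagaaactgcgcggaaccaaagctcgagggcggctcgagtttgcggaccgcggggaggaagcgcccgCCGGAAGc
MRPL11: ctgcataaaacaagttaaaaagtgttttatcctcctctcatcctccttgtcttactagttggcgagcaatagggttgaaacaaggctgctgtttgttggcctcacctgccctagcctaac
MRPS14: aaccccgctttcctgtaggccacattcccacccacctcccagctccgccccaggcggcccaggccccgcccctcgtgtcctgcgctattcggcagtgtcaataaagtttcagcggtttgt
MRPS10: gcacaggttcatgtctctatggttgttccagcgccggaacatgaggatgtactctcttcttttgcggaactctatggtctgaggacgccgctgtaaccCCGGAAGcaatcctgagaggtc
MRPS18A: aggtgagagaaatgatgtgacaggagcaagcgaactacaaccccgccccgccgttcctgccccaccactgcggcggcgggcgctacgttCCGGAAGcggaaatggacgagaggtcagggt

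RefSeq windows of 250 bases before to 50 bases after a start were found for 70 of the 78 genes. A gene with several windows was counted once, as a match if any window matched. Shares by gene and shares of all windows are therefore unlike measures. The letters CCGGAAG, on either strand, were found for 30 of these 70 genes (42.9%) and for 22.4% of the 10540 tested genes with a window. They were in 10.3% of all 35116 windows. The letters AAGATGGCG, from the element bound by YY1, were found for 13 of 70 genes (18.6%), for 4.62% of tested genes and in 1.75% of all windows. CGCNTGCG, from the palindrome bound by the factor NRF1, was in 15 of 70 (21.4%), in 21.8% of tested genes and in 10.04% of all windows. TATAAA was found for 4 of the 70 genes (5.71%), for 8.72% of tested genes and in 11.5% of all windows. The E-box CACGTG was in 10 (14.3%), in 12.7% of tested genes and in 7.26% of all windows. With hairpin 2, 28 of the 30 genes with the ETS letters and 34 of the 40 without them were called lower, beside 37.8% of all tested genes. Their medians were -0.75 and -0.66 on the log2 scale. A match is a description of letters in the window and not a bound site.

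Tested on TMM-scaled counts (edgeR's quasi-likelihood test, Benjamini-Hochberg adjusted p under 0.05 over all genes), most of the 78 genes fell with hairpins 1 and 2 and fewer with hairpin 3. With hairpin 1, 52 were lower and 3 higher, with a median log2 fold change of -0.44; 31.5% of all tested genes were called lower and 31.5% higher. With hairpin 2, 70 were lower and 1 higher, with a median of -0.70, against 37.8% lower and 36.6% higher over all genes. With hairpin 3, 18 were lower and 6 higher, with a median of -0.14, against 24% lower and 23.6% higher, so its share called lower, 23.1%, was near the background. The medians over all tested genes were 0.0059, -0.017 and 0.0086. The count lower with hairpin 3 was 33 without control library 1, 8 without control library 2, 9 without control library 3 and 9 without hairpin 3 library 1. Shares of all genes were not computed for these fits without 1 library, so these 4 counts have no background beside them. Deviations of equally numbered control and hairpin 3 libraries from their group means correlated at 0.73, 0.17 and 0.60, so only weakly for number 2. The labels state no pairing, and a block was chosen from these correlations after the data were seen. A fit to those 6 libraries with the replicate number as a block called 39 of the 78 lower and 14 higher. In it, 35.5% and 35.9% of all genes were called lower and higher. Fitted without the other 2 hairpins and without the block, the control and hairpin 3 libraries gave 5 lower and 1 higher (15% and 12.7% of all genes).

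No gene was called higher with each of the 3 hairpins by edgeR (0 at an unadjusted p under 0.05, and 0 by DESeq2), where 13.9% of all tested genes were. Lower with each were 16, where 15% of all tested genes were. Over the mean of the 3 hairpins, 58 were lower and 2 higher (35.8% and 33.7% of all genes), with a median of -0.45. In 54 genes all 3 hairpin 1 libraries lay below all 3 control libraries, and in 69 all 3 hairpin 2 libraries did; 34.2% and 38.8% of all tested genes did so. The hairpin 3 libraries did so in 10 genes (12.8%), against 23.7% of all tested genes.

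The change was then set beside that of all genes of like transcript length, since short transcripts as a whole were lower with each hairpin. Among the 1278 shortest genes tested, of 177 to 1341 bp, the median change with hairpin 1 was -0.49, and the 35 mitochondrial ribosomal protein genes among them had a median of -0.51. With hairpin 2 the same medians were -0.62 and -0.72, and with hairpin 3 they were -0.19 and -0.14. In the second decile, of 1341 to 1816 bp, all genes had -0.33 and the 23 ribosomal protein genes -0.48 with hairpin 1, and -0.46 and -0.73 with hairpin 2. Against the median of their own decile, 47 of 78 were lower with hairpin 1, 60 with hairpin 2 and 36 with hairpin 3. The median distance from their own decile was -0.12, -0.28 and 0.014.

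**Figure D2:**
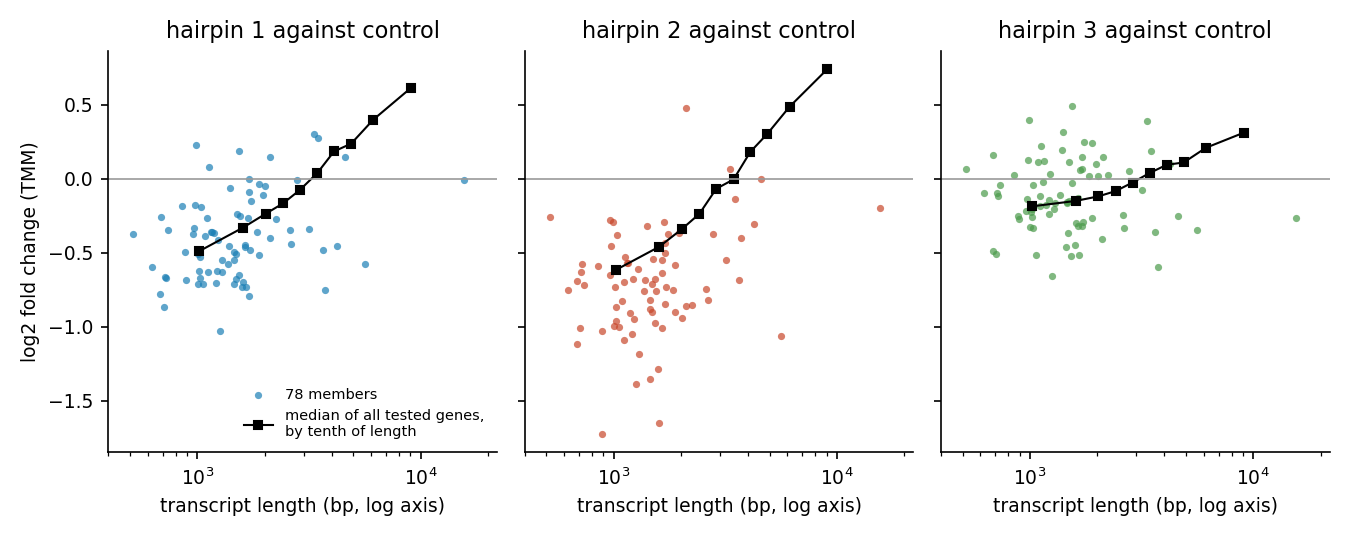
Log2 fold change on TMM-scaled counts against annotated transcript length (log axis) for the 78 genes (points), with the median of all tested genes in each decile of length (black squares, at the median length of the decile). The points of hairpins 1 and 3 lie around the squares, and 60 of 78 points of hairpin 2 lie below the median of their decile.

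The fit was repeated with 4 treatments of length: offsets from a smooth fit on annotated length and GC content, offsets from the length implied by the deposited counts and FPKM, the length slope of each library as a covariate, and limma on log2(TPM + 1). With hairpin 1 the median of the 78 genes moved from -0.44 to between -0.089 and 0.070, and with the length and GC offsets 27 were lower and 15 higher, against 30.8% and 30.1% of all genes. With hairpin 3 the median moved to between 0.015 and 0.087, with 15 lower and 22 higher under the length and GC offsets (27.5% and 27.8% of all genes). With hairpin 2 it stayed below 0 in each, between -0.31 and -0.11, and the length and GC offsets called 50 lower and 9 higher (37.9% and 38.4% of all genes). On the log2(TPM + 1) scale the median of all tested genes shifted to 0.29, 0.33 and 0.12 with hairpins 1, 2 and 3, so the medians of -0.040, -0.28 and 0.015 of the ribosomal protein genes are lower still relative to it.

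**Figure D3:**
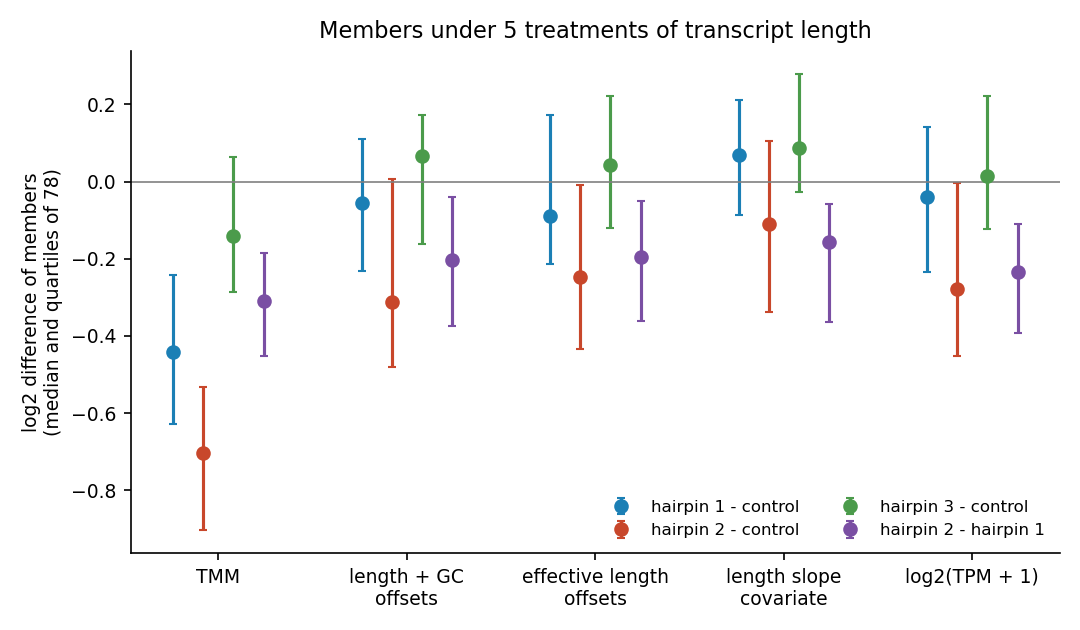
Median and quartiles of the log2 difference over the 78 genes under TMM scaling and 4 treatments of transcript length, for each hairpin against the control and for hairpin 2 against hairpin 1. Medians of hairpins 1 and 3 lie between -0.089 and 0.087 once length is treated, and those of hairpin 2 stay below 0.

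Few genes kept the same call in all 5 analyses with hairpin 1. These were MRPL35, MRPL37, MRPL41, MRPS5 and MRPS18B, all lower, and none was higher (0 at an unadjusted p under 0.05 in all 5, where 10.1% of all genes were called); the 5 are 6.41% of the 78, and 7.97% of all tested genes were lower in all 5. With hairpin 2, 18 were lower (23.1%, against 13.6% of all genes) and MRPS14 alone was higher (16.9% of all genes were). With hairpin 3, MRPL21, MRPS5, MRPS10, MRPS18A, MRPS18B and MRPS24 were lower (13% of all genes were) and MRPL44, MRPL48, MRPS6, MRPS7 and MRPS35 were higher (16.2%).

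The length slopes of hairpins 1 and 2 were nearer to each other than to those of the control, and these 2 hairpins were compared directly. Of the 78 genes, 37 were lower with hairpin 2 and 2 higher, with a median of -0.31, against 29.4% lower and 28.2% higher over all tested genes. In the 4 treatments of length the count lower was 44, 41, 46 and 48 (34%, 32.5%, 38.6% and 24.9% of all genes, in the order named above) and the median -0.23 to -0.16. Across treatments, 33 were lower in all 5 analyses (42.3%, against 22.4% of all tested genes), 19 of the large subunit and 14 of the small subunit. Only MRPS14 and MRPL35 were higher in all 5, where 24.2% of all genes were. The count lower was 60 with the first control and first hairpin 3 libraries left out (37.2% of all genes) and 24 without hairpin 2 library 2. The share of all genes was not computed for the latter fit.

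**Figure D4:**
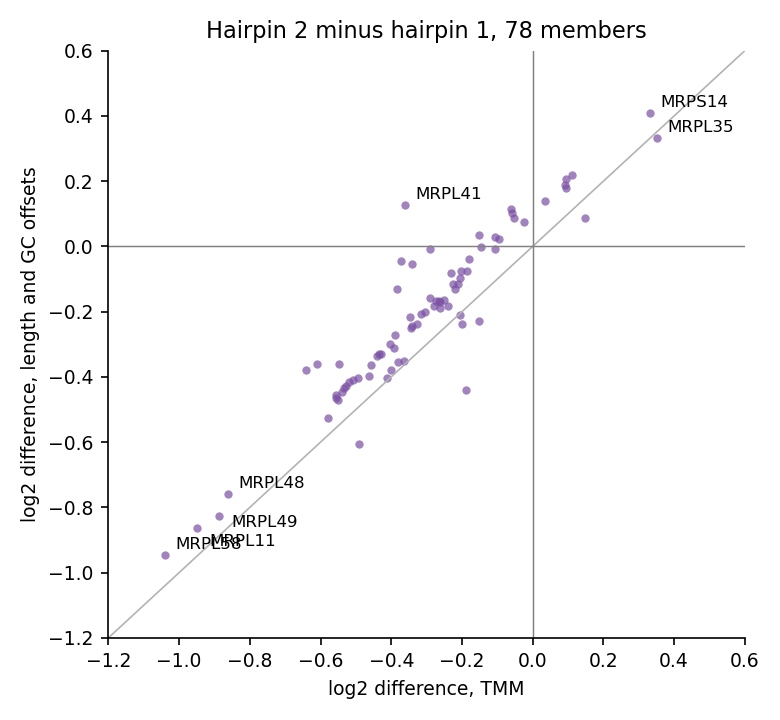
Log2 difference of hairpin 2 from hairpin 1 for each of the 78 genes on TMM-scaled counts (horizontal) and with length and GC offsets (vertical), with the line of equality in grey. Most points lie below 0 on both axes, from MRPL58 at -1.04 and -0.95 to MRPS14 at 0.33 and 0.41.

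Hairpin 3 gave higher values than hairpin 2 in 70 genes and lower values in 3, with a median difference of 0.60 (33.4% and 31.9% of all genes). In all 5 analyses 34 were higher (43.6%, against 15.5% of all genes) and MRPS14 alone was lower (21.4%). Hairpins 3 and 1 differed in fewer: 13 genes were higher with hairpin 3 and MRPS25 lower, with a median of 0.30, where 4.75% and 4.7% of all genes were called. That count was 56 without hairpin 3 library 1, and 69 without the first control and first hairpin 3 libraries (28.2% of all genes). It was 29 without control library 1, 8 without control library 2 and 5 to 7 without any 1 of the hairpin 2 libraries. It was 0 without any 1 of the hairpin 1 libraries or without hairpin 3 library 2 or 3 (edgeR, 19 to 32 at an unadjusted p under 0.05). Shares of all genes were not computed for the fits without 1 library, so those counts have no background beside them. DESeq2 on all 12 libraries called 21 higher, beside 8.34% of all genes.

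MRPL58 (also called ICT1) is a peptidyl-tRNA hydrolase that became part of the large subunit and can release stalled mitochondrial ribosomes. Its CPM was 46.4, 56.4 and 62.6 in the control, 35.6, 33.4 and 34.1 with hairpin 1, 17.7, 15.9 and 16.5 with hairpin 2, and 36.4, 49.3 and 51.3 with hairpin 3. Each hairpin 2 library was below every other library. The fall with hairpin 2 was -1.72 ± 0.14 (log2, SE; edgeR adjusted p = 6.8e-07), and -1.11 with the length and GC offsets. Against hairpin 1 it was -1.04 ± 0.14 (edgeR adjusted p = 6.1e-05).

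MRPL11 is a bacterial-type protein at the base of the stalk, the part of the large subunit that recruits translation factors. It stood at 107, 142 and 169 CPM in the control, 89.2, 82.1 and 86.9 with hairpin 1, 48.1, 43.2 and 42.5 with hairpin 2, and 86.0, 120.02 and 134 with hairpin 3. Here too the hairpin 2 libraries were the lowest 3, and hairpin 3 overlapped the control. The fall with hairpin 2 was -1.65 ± 0.17 (edgeR adjusted p = 5.9e-06). MRPL12, the stalk protein that also binds the mitochondrial RNA polymerase POLRMT, fell on TMM-scaled counts with hairpins 1 and 2 by 0.67 and 0.96 on the log2 scale, but with the length and GC offsets its changes were 0.12 and 0.11 and were called higher. Its direction thus depends on how length is treated.

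MRPL49, a protein found only in mitochondria, was even across 3 groups and low in the fourth. Its CPM was 178, 182 and 196 in the control, 179, 178 and 180.3 with hairpin 1, 97.6, 96.7 and 95.6 with hairpin 2, and 183, 188 and 190.4 with hairpin 3. The difference of hairpin 2 from hairpin 1 was -0.89 ± 0.06 (edgeR adjusted p = 1.5e-07), and -0.83 with the length and GC offsets. MRPL49 shares exon bases with FAU and SYVN1 on the opposite strand, and the larger overlap covers 11.6% of its exon bases. Unstranded reads there cannot be told apart. MRPL49 and MRPL37 lie outside the rule for named genes and were chosen after their values were seen.

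MRPL41, found only in mitochondria, had the largest falls of the 78 with hairpins 1 and 3 and the third largest with hairpin 2. It stood at 49.7, 65.2 and 77.1 CPM in the control, 33.5, 28.9 and 31.8 with hairpin 1, 25.04, 25.3 and 23.1 with hairpin 2, and 29.8, 45.3 and 46.8 with hairpin 3. All 9 libraries with a SKA2 hairpin lay below all 3 control libraries. The changes were -1.03 ± 0.18, -1.39 ± 0.18 and -0.65 ± 0.17 (edgeR adjusted p = 0.00058, 2.8e-05 and 0.0098). With the length and GC offsets they were -0.26, -0.13 and -0.019, and the one with hairpin 3 was not called; in the other 3 treatments of length it was called lower with each hairpin.

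MRPS10 and MRPS16, bacterial-type proteins of the small subunit, had little spread between libraries and fell with each hairpin. On the log2(TPM + 1) scale the call of MRPS10 with hairpin 1 was lost, and those of MRPS16 with hairpins 1 and 3. MRPS10 was at 129.8, 136 and 135 CPM in the control, 102, 96.8 and 106 with hairpin 1, 72.8, 72.5 and 75.7 with hairpin 2, and 101, 97.1 and 104 with hairpin 3. No library with a SKA2 hairpin reached a control library, and the hairpin 2 libraries were the lowest. Its changes were -0.40 ± 0.06, -0.86 ± 0.06 and -0.41 ± 0.06, and -0.39, -0.79 and -0.47 with the length and GC offsets. MRPS16 changed by -0.44, -0.82 and -0.33.

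The 3 paralogs of MRPS18 differ in place: MRPS18B and MRPS18C proteins sit in the small subunit and MRPS18A in the large subunit. MRPS18B was at 78.5, 90.7 and 99.1 CPM in the control, 57.7, 54.3 and 59.5 with hairpin 1, 49.1, 46.3 and 41.3 with hairpin 2, and 57.9, 61.1 and 67.8 with hairpin 3. Its groups did not overlap the control, and it was the 1 paralog called lower with each hairpin in all 5 analyses. MRPS18A was also called lower with each hairpin on TMM-scaled counts, at -0.71, -1.003 and -0.52, and MRPS18C with hairpins 1 and 2 only, at -0.44 and -0.55. With hairpin 3 MRPS18C was at -0.13 ± 0.10 (edgeR adjusted p = 0.33), and in 3 of the 4 treatments of length, all but the length and GC offsets, it was not called with any hairpin. MRPS18A's changes shrank to -0.084, -0.24 and -0.18 with the length and GC offsets.

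MRPS5, a small subunit protein of bacterial type, was lower with each hairpin on TMM-scaled counts, at -0.73 ± 0.11, -0.63 ± 0.11 and -0.52 ± 0.11. With the slope covariate, its change with hairpin 2 was -0.096 and was not called. MRPL35 fell most with hairpin 1 and least with hairpin 2. Its CPM was 67.5, 71.5 and 72.1 in the control, 42.3, 42.6 and 40.8 with hairpin 1, 54.4, 51.4 and 54.6 with hairpin 2, and 45.3, 45.8 and 48.3 with hairpin 3. The 4 groups did not overlap, and hairpin 2 was higher than hairpin 1 by 0.35 ± 0.06 (edgeR adjusted p = 0.00045). Its annotated transcript of 3727 bp is much longer than the 1080 bp implied by the deposited counts and FPKM, and its change with hairpin 2 was -0.75 with offsets from the first and 0.14 with offsets from the second.

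MRPS14, a small subunit protein of bacterial type, was the gene called higher with hairpin 2. It shares 13.5% of its exon bases with CACYBP on the opposite strand, and unstranded reads there cannot be told apart. MRPS14 is described here by all its reads. It was at 29.4, 35.7 and 33.9 CPM in the control, 36.4, 36.9 and 36.6 with hairpin 1, 46.9, 47.6 and 43.9 with hairpin 2, and 34.7, 36.5 and 38.3 with hairpin 3. The hairpin 2 libraries were the highest 3 of 12, and hairpin 3 overlapped the control. The change with hairpin 2 was 0.48 ± 0.08 (edgeR adjusted p = 0.00018), and 0.52 with the length and GC offsets. MRPL50, found only in mitochondria, rose with hairpins 1 and 3 by 0.30 and 0.39 on TMM-scaled counts, but its values with the length and GC offsets were -0.093 and 0.086 and passed no threshold. In the other 3 treatments of length it was called higher with both.

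Opposite calls with a pair of hairpins were made for 6 genes, MRPL44, MRPL48, MRPS6, MRPS7, MRPS25 and MRPS35 (7.69% of the 78), and for 8.06% of all tested genes. Few of these 6 kept them once length was treated. MRPL48 and MRPS35 did with the length and GC offsets, and none of the 6 with the effective length offsets. MRPS35 did with the slope covariate and MRPL48 on log2(TPM + 1). Other genes gained opposite calls, so 8, 5, 3 and 6 of the 78 had them in these treatments (10.3%, 6.41%, 3.85% and 7.69%). Over all tested genes the shares were 14.4%, 11.9%, 12.1% and 7.17%. MRPS6 and MRPS7 were above 0 with hairpin 2 in all 4 treatments, at 0.24 and 0.19 with the length and GC offsets. MRPL48, found only in mitochondria, was at 25.6, 30.1 and 35.8 CPM in the control, 34.8, 31.9 and 37.5 with hairpin 1, 19.3, 19.2 and 18.8 with hairpin 2, and 35.9, 46.1 and 46.8 with hairpin 3. The hairpin 2 libraries lay below and the hairpin 3 libraries above all control libraries. Its changes were -0.67 ± 0.13 with hairpin 2 and 0.49 ± 0.13 with hairpin 3. MRPS35, a small subunit protein found only in mitochondria, was at 109, 112 and 104 CPM in the control, 109, 102 and 106 with hairpin 1, 72.3, 73.3 and 71.1 with hairpin 2, and 126, 126 and 133 with hairpin 3. Hairpin 2 lay below and hairpin 3 above all control and hairpin 1 libraries.

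**Figure D5:**
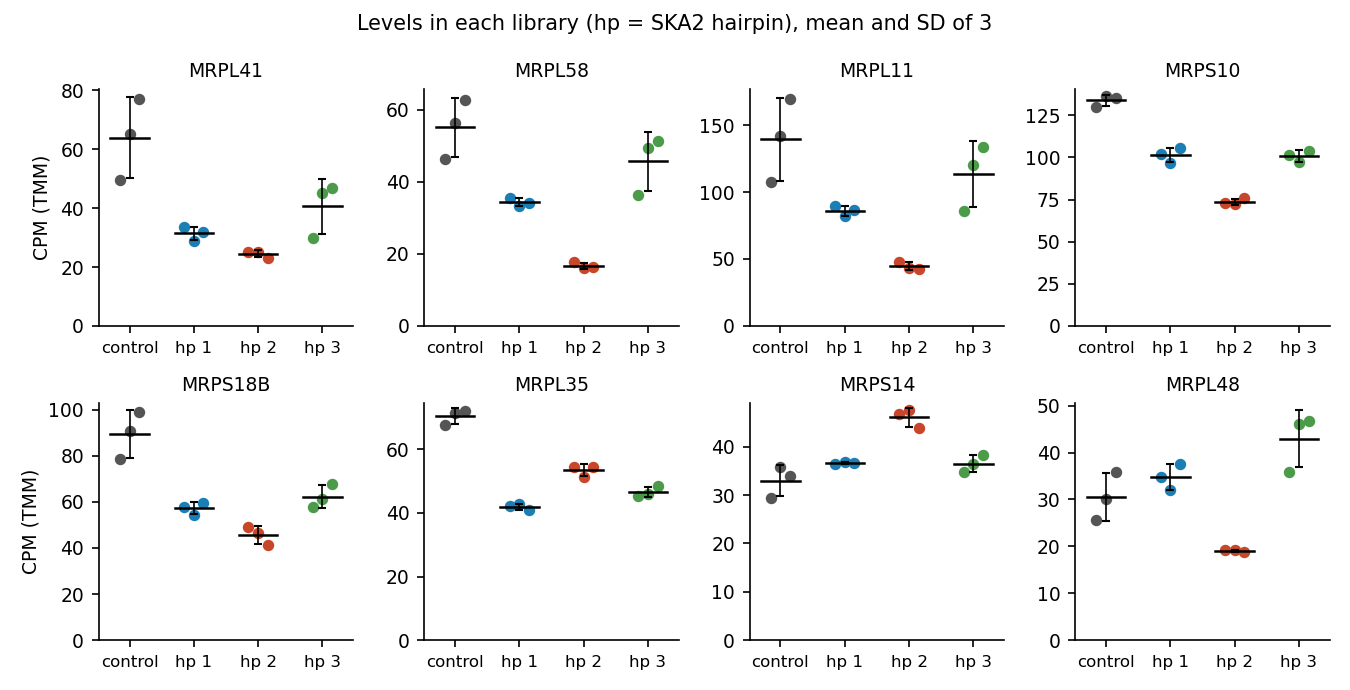
CPM after TMM scaling in each library for 8 genes, with the mean and SD of 3 libraries (hp, SKA2 hairpin). MRPL58, MRPL11 and MRPL48 are lowest with hairpin 2, MRPS14 is highest there, and MRPL35 is lowest with hairpin 1.

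MRPS36 moved with the ribosomal genes on TMM-scaled counts, at -0.55 ± 0.10 and -0.61 ± 0.10 with hairpins 1 and 2, and at -0.53 and -0.42 with the length and GC offsets. In the other 3 treatments of length it was called with neither hairpin. MRPS30 fell by 0.26 and 0.29 on the log2 scale with the same hairpins, and with the length and GC offsets its values were -0.050 and 0.023. With hairpin 2, 46 of 51 large subunit genes and 23 of 26 small subunit genes were lower (37.8% of all tested genes were), with medians of -0.72 and -0.68. The 48 genes with a bacterial ortholog had a median of -0.71 with hairpin 2 and the 29 found only in mitochondria -0.70. With hairpin 3 the medians were -0.15 and -0.029, and with length and GC offsets 9 of 48 and 13 of 29 were higher, where 27.8% of all genes were. The differences between these classes were not tested. Reads were counted without strand, and 29 genes share exon bases with a gene on the opposite strand. Among these, MRPS18A shares 47.0% of its exon bases with RSPH9, MRPS18C 40.2% with ABRAXAS1, MRPS25 22.2% with NR2C2 and MRPS16 14.1% with DNAJC9-AS1. Among the other 49, 44 were lower with hairpin 2 (37.8% of all tested genes were), with a median of -0.70.

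Of the 78 genes, 19 start head to head with another protein-coding gene within 1000 bp. MRPL57 starts 43 bp from SKA3, which encodes another SKA complex subunit. MRPL57 changed by -0.27, -0.85 and 0.028 with hairpins 1, 2 and 3, and SKA3 by -0.24, -2.06 and -0.019. Both were called lower with hairpin 2, and with hairpin 1 only SKA3 was. MRPL46 and MRPS11 start 34 bp apart and were both lower with hairpins 1 and 2. MRPS18C and the helicase gene HELQ, 76 bp apart, were called opposite ways with hairpin 2, at -0.55 and 0.41, and MRPL30 and MITD1, 21 bp apart, at -0.75 and 0.46. These pairs were chosen after their values were seen.

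Other genes of mitochondrial translation came from lists of known roles; their counts stand beside 37.8% lower and 36.6% higher over all genes with hairpin 2, and 31.5% each way with hairpin 1. Of 5 ribosomal protein genes with other symbols, 4 were lower with hairpin 2, among them GADD45GIP1 at -1.04 and AURKAIP1 at -0.91, and with the length and GC offsets these were at -0.34 and 0.26. PTCD3 was higher with each hairpin, at 0.61, 0.29 and 0.50, and at 0.029, -0.42 and 0.17 with the offsets. Of 16 translation factors, 12 were lower and 3 higher with hairpin 2, and 8 and 1 with hairpin 1. TACO1, needed for translation of the cytochrome oxidase subunit encoded by MT-CO1, was at -0.68 over the mean of the hairpins, the elongation factor TUFM at -0.56 and the deformylase PDF at -0.58; with the offsets they were at -0.18, -0.17 and 0.10. With the length and GC offsets 12 of the 16 were again lower with hairpin 2, 11 of them the same genes, with a median of -0.48 (37.9% of all genes were lower). Of 25 assembly factors, 20 were lower and 2 higher with hairpin 2, and 14 and 2 with hairpin 1; NGRN was at -0.86 and the rRNA methyltransferase gene MRM1 at -0.81 over the mean, and METTL15 at 0.56. With the offsets they were at -1.41, -0.23 and 0.14. The mitochondrially encoded RNAs were not analysed here.

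Of 15 genes of mitochondrial transcription and RNA handling, 7 were lower and 2 higher with hairpin 2 (37.8% and 36.6% of all genes). With hairpin 3, 4 were higher and 2 lower, beside 23.6% and 24% of all genes. TFAM, which packages mitochondrial DNA and starts its transcription, was higher with hairpins 1 and 3, at 0.68 and 0.54. With hairpin 2 it was at -0.22, which was not called. With the length and GC offsets it was at 0.11 and 0.16 with hairpins 1 and 3 and at -0.87 with hairpin 2. Over the mean of the hairpins, FASTKD5 and PTCD2 of this list were at 0.56 and 0.41, and HSD17B10, SLIRP and SUPV3L1 at -0.66, -0.58 and -0.41. With the offsets these 5 were at 0.52, -0.38, -0.061, -0.16 and -0.38. Among 11 regulators of nuclear genes for mitochondria, 5 were higher and 2 lower with hairpin 2, and 3 and 2 with each other hairpin, beside the same shares of all genes. GABPA, the ETS subunit of GABP, was higher with hairpins 1 and 3, at 1.004 and 0.75, and at 0.42 and 0.33 with the offsets. With hairpin 2 it was at 0.43 (edgeR adjusted p = 0.058), and at -0.21 with the offsets. The rule also named PPARGC1B, at 1.19, 1.10 and 0.39 with hairpins 1, 2 and 3 (0.58, 0.28 and 0.079 with the offsets). It named GABPB2 too, at 0.40, 0.70 and 0.60 (-0.27, -0.15 and 0.22 with the offsets). PPARGC1B was not called with hairpin 3, nor GABPB2 with hairpin 1. YY1 lies outside the rule for named genes and is given for its element above. It was higher with each hairpin, at 0.58, 0.26 and 0.34, and at 0.11, -0.34 and 0.095 with the offsets. ESRRA, the nuclear receptor ERRα, was lower with each, at -1.32, -0.75 and -1.54 (-0.85, -0.090 and -1.17 with the offsets). MYC was lower with hairpins 2 and 3, at -0.48 and -0.28, and at 0.23 and 0.066 with the offsets. No statement on regulation is drawn from these levels.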

How the data were processed

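Groups and replicate numbers came from the sample titles. The submitters' processing notes name HISAT, Bowtie2, RSEM and DESeq2 and build GRCh38.p13, without roles or versions. Per the labels' protocols, polyadenylated RNA was fragmented and primed at random, so reads rise with transcript length, and no step marks the strand. Per the file headers, the authors deposited expected counts, FPKM (per length and library size) and TPM (per length, to 1 total) for each library. Expected counts share ambiguous reads between genes; 63 of the 78 genes had whole counts in all 12 libraries. A further 15 columns of group averages were not used.

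The rounded expected counts went into edgeR 4.0.16 (R 4.3.3) after its low-count filter and TMM scaling, with 1 term per group, 8 degrees of freedom left for error and an edgeR common biological coefficient of variation at 0.111. Tests were two-sided. SE is the absolute log2 change over the root of edgeR's F. Library totals of 14693323 to 16739147 counts set the precision. Alternatives used limma 3.58.1 on log2(TPM + 1) or log2(FPKM + 1), DESeq2 1.42.0, other scalings, length offsets (lowess span 0.3), the replicate block and left-out libraries. The fits were tested on simulated counts. Lengths and positions came from GENCODE v29, which matched all 78 genes. Deviations of same-numbered libraries from their group means correlated at 0.73, 0.17 and 0.60 between control and hairpin 3. Every other pair of groups had at least 1 number under 0.1, so a block on numbers was fitted separately to the control and hairpin 3 libraries. The main fit had no block, so its hairpin 3 changes, SE and adjusted p come from an unpaired test. The rule named the MRPS18 paralogs, MRPS30, MRPS36, MRPL12 and MRPL58, the 3 largest called changes each way per hairpin without overlap, the 6 largest shared by all hairpins, the 2 largest per pair of hairpins, the 3 highest and 3 lowest by TPM, and the 3 largest called changes each way over the mean in each other list. Not every gene that the rule named in the other lists is printed. The genes and lists were chosen with earlier results of these data known.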

Additional observations from a re-analysis of the deposited data

Results flagged for a closer look

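The effect of SKA2 hairpins on the mitochondrial ribosomal protein genes differed between hairpins by edgeR's test of the difference itself. Of the 78 genes, 37 were lower and 2 higher with hairpin 2 than with hairpin 1 (29.4% and 28.2% of all tested genes). With hairpin 3, 3 were lower and 70 higher than with hairpin 2 (31.9% and 33.4%), and 1 was lower and 13 higher than with hairpin 1 (4.7% and 4.75%). The last count moves with single libraries, as given in the report.

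Calls in opposite directions against the control were found for 6 genes (7.69%, near the 8.06% of all tested genes). The differences between hairpins below describe their size only. Because the genes were picked by these opposite calls in the same fit, a called difference was nearly fixed in advance. Hairpin 3 exceeded hairpin 2 by 1.17 ± 0.13 (log2, SE) for MRPL48, 0.83 ± 0.06 for MRPS35, 0.68 ± 0.12 for MRPS6, 0.64 ± 0.11 for MRPS7 and 0.62 ± 0.09 for MRPL44. MRPS25 was lower with hairpin 3 than with hairpin 1, at -0.40 ± 0.06. The edgeR adjusted p of these differences ran from 3.1e-07 for MRPS35 to 0.0036 for MRPS25, which for the same reason adds no separate support. Of the 6 opposite calls, 2 were kept with the length and GC offsets, 0 with the effective length offsets, 1 with the slope covariate and 1 on log2(TPM + 1).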

How the results depend on the processing

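Counts below are genes called lower and higher of the 78, and medians are log2. With RLE or upper-quartile scaling and without the filter on low counts, every count stayed within 1.5 times of the TMM count and every median kept its sign. DESeq2 moved the comparison of hairpins 3 and 1, to 21 higher and 2 lower (8.34% and 7.03% of all genes). Use of limma on log2(FPKM + 1) moved hairpin 1 to 5 higher (34.6% of all genes).

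Treatments of length moved most values. The share of all tested genes called lower then ranged from 13.4% to 30.8% (hairpin 1), 20.9% to 37.9% (hairpin 2) and 16% to 29.5% (hairpin 3). The share called higher was 19.5% to 30.1%, 27.2% to 38.4% and 27.3% to 29.3% in the 3 count fits, and 50.2%, 53% and 25% on log2(TPM + 1). On log2(TPM + 0.1) it was 50.3%, 53% and 25.7%. For the mean, 34.8% of all genes were lower with effective length offsets, 25.9% with the slope covariate and 18% on both log2(TPM) scales. Higher in the mean were 22.6% to 32.9% in the count fits, and 52% and 51.7% on log2(TPM + 1) and log2(TPM + 0.1). For hairpin 2 against 1, 33.6% to 36.4% were higher in the count fits. With length and GC offsets, hairpin 1 gave 27 lower and 15 higher (median -0.054), hairpin 2 9 higher (-0.31), hairpin 3 22 higher (0.068), the mean 14 higher (-0.10), hairpin 2 against 1 6 higher, hairpin 3 against 1 2 lower (0.10) and hairpin 3 against 2 a median of 0.33. With effective length offsets, the values were 26 lower and 21 higher (-0.089), 43 lower and 8 higher (-0.25), 22 higher (0.044), 31 lower and 19 higher (-0.068), 4 higher, 8 higher (0.096) and 0.27 in the same order. With the length slope as a covariate, they were 10 lower and 18 higher (0.070), 27 lower and 11 higher (-0.11), 32 higher (0.087), 18 lower and 18 higher (0.0096), 9 higher (-0.16), 5 lower (0.037), and 8 lower and 42 higher (0.19). On log2(TPM + 1), they were 22 lower and 19 higher (-0.040), 46 lower and 3 higher (-0.28), 10 lower and 17 higher (0.015), 28 lower and 15 higher (-0.097), 7 higher for hairpin 3 against 1 (0.072) and 0.31 for hairpin 3 against 2. On log2(TPM + 0.1), they were 22 lower and 19 higher (-0.040), 45 lower and 3 higher (-0.28), 11 lower and 18 higher (0.015), 28 lower and 15 higher (-0.098), 6 higher (0.072) and 0.31. For hairpin 3 against 1, 11.7% of all genes were lower with length and GC offsets and 13.3% with the slope covariate. Higher there were 7.1% with effective length offsets, 1.88% on log2(TPM + 1) and 1.76% on log2(TPM + 0.1). For hairpin 3 against 2 with the slope covariate, 32.2% of all genes were lower and 34.1% higher. The log2 ratio of summed levels to the control moved from -0.38 to -0.071 with hairpin 1 and from -0.71 to -0.32 with hairpin 2 on the TPM scale.

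Single genes changed sign as follows. With length and GC offsets, MRPL12 was at 0.12 with hairpin 1, 0.11 with hairpin 2 and 0.13 in the mean, MRPL40 at 0.15, 0.066 and 0.26, MRPL19 at -0.058 and MRPS25 at -0.13 with hairpin 1, MRPL50 at -0.093 with hairpin 1 and -0.095 in the mean, MRPS6 at 0.24 with hairpin 2, and MRPS30 at 0.023 with hairpin 2 and 0.039 in the mean. With effective length offsets, MRPL19 was at -0.33 and MRPS25 at -0.11 with hairpin 1, MRPL35 at 0.14 and MRPS6 at 0.36 with hairpin 2, MRPL40 at 0.085 with hairpin 1 and 0.15 in the mean, and MRPS30 at 0.062, 0.18 and 0.16 with hairpin 1, hairpin 2 and the mean. With the slope covariate, MRPL11 was at 0.061 and MRPS33 at 0.15 with hairpin 1, MRPL12 at 0.16, 0.10 and 0.10 and MRPL40 at 0.21, 0.17 and 0.29 with hairpin 1, hairpin 2 and the mean, MRPL28 at 0.11 with hairpin 2 and 0.029 in the mean, MRPS6 at 0.26 and MRPS24 at 0.079 with hairpin 2, and MRPS30 at 0.0086 in the mean. On both log2(TPM) scales, MRPL35 was at 0.13 and MRPS6 at 0.15 with hairpin 2, MRPL40 at 0.018 in the mean, and MRPS30 at 0.11 or 0.12 with hairpin 1, 0.15 with hairpin 2 and 0.16 in the mean. The cause was not tested beyond the length terms themselves.

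With only the groups compared, hairpin 3 gave 5 lower and 1 higher by edgeR (15% and 12.7% of all genes). Hairpin 2 against 1 gave 61 lower (38.4% of all genes). Hairpin 3 against 1 gave 0 higher by edgeR (40 at an unadjusted p under 0.05), beside 1.15% of all genes. The 9 hairpin libraries as 1 group gave 26 lower and 0 higher by edgeR (1 unadjusted), beside 18.7% and 19.6% of all genes. The replicate block on the control and hairpin 3 libraries, added after the data were seen, gave 39 lower and 14 higher (35.5% and 35.9% of all genes). On all 12 libraries the block moved no count by over 1.5 times. Without the first control and first hairpin 3 libraries, also added later, hairpin 3 gave 33 lower (28.7% of all genes) and hairpin 2 against 1 60 lower (37.2%). Hairpin 3 against 1 then gave 69 higher and 3 lower (28.2% and 28.9% of all genes). Leaving out 1 library gave 8 to 33 lower with hairpin 3, 24 to 44 lower for hairpin 2 against 1, and 0 to 56 higher and 1 to 2 lower for hairpin 3 against 1. No share of all genes was computed for these fits, so how far the ranges follow all genes is not known. Each of the 78 genes had at least 140.15 expected counts in every library; counting error was not set against the spread between libraries.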
